A study of Mus musculus with 2 samples.

Results

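Integrins are the transmembrane receptors that attach cells to the extracellular matrix, and 41 of the 23176 genes in the authors' table belong to them or to their inner attachment sites. The members were matched by gene symbol, and the group was chosen with earlier results of these data known. It holds the integrin alpha (Itga) and beta (Itgb) subunits, the integrin-like gene Itgbl1, and focal adhesion genes. The latter are the talins, vinculin, kindlins, Ilk, the PINCH proteins (Lims1 and Lims2), the parvins, Ptk2, Pxn and Zyx. The members comprise 18 alpha subunits, 8 beta subunits, Itgbl1 and 14 intracellular partners.

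Expression was measured by mRNA sequencing in STHdhQ7 and STHdhQ111, cell lines from the striatum of embryonic day 14 mouse embryos of the 129SvEv/CD1 background, known as lines immortalised with a temperature-sensitive viral antigen. STHdhQ7 is HdhQ7/Q7, homozygous for huntingtin with the shorter polyglutamine stretch, and STHdhQ111 is HdhQ111/Q111, homozygous for the expanded form. Both lines, at fewer than 15 passages, were grown at 33 °C and then held at 39 °C for 2 days, a shift meant to halt division. Each line has 1 sample, whose title names 3 replicates, and the values are 1 combined FPKM per line (fragment counts scaled to transcript length and to the mapped fragments of the library). The depth is therefore unknown, and line history and genotype cannot be told apart in this comparison of 1 line with 1 line. Of 12 markers of striatal neurons, 11 were under 1 FPKM in both lines, with the dopamine receptor gene Drd1a at 0 in both, and the exception was Penk at 2.85 FPKM (STHdhQ7) and 6.49 FPKM (STHdhQ111). The striatal label therefore describes the origin of the lines and not mature striatal neurons.

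An integrin is a pair of 1 alpha and 1 beta chain. The alpha chain largely sets which matrix protein is bound, such as collagen, laminin, or the RGD tripeptide of fibronectin and vitronectin. The short inner tail of the beta chain is gripped by talin and kindlin, which activate the receptor, and vinculin ties talin to actin. A complex of Ilk, a PINCH protein and a parvin forms another link to actin, while the kinase Ptk2 (FAK) and the scaffold paxillin (Pxn) carry signals from the site. In the developing forebrain, integrins on neural progenitors hold the cells to laminin-rich basement membranes.

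Itga7, Itgb4 and Tln2 fell and Itgb7 and Itga2b rose in STHdhQ111, while Itgb1, Tln1, Vcl, Ilk, Pxn and most other core adhesion genes were not called. Of the 41 members 30 were tested by the authors, and 8 of these reached the authors' q threshold of 0.05, which is what called means below. That is 26.7% of the tested members, beside 13.5% of the 12740 tested genes in the table. The counts were 2 called higher in STHdhQ111, Itgb7 and Itga2b (6.35% of all tested genes were called higher), and 6 called lower, Itga7, Tln2, Itgb4, Itga4, Itgb2 and Itga3 (7.17% of all tested genes were called lower). By role, 7 of 17 tested subunits and 1 of 12 tested intracellular partners were called, and Itgbl1 was not. The smallest absolute log2 fold change of any called gene in the table was 1.02. A gene that was not called may therefore still differ between the lines. The median log2 ratio (FPKM + 0.5, STHdhQ111 over STHdhQ7) was -0.24 over tested members and -0.05 over all tested genes. It was -0.48 over the tested subunits and -0.06 over the tested partners.

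The 11 members without a test were all under 0.25 FPKM in both lines, the highest being Fermt3 at 0.246 FPKM in STHdhQ111. Every tested gene in the table reached at least 0.505 FPKM in a line. Itga4 was the single tested member whose other line lay under that level, so it entered the test through STHdhQ7, where it was higher. Nearest the threshold, Itga3 was called at a q of 0.0469 and Itgb8 missed it at 0.0706 in the authors' deposited table.

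The 4 promoters below introduce the receptor results: the only members called higher, 1 called lower, and the abundant Itgb1, which was not called. Each line holds the 250 bases before the start site of the RefSeq entry (GRCm38.p6), 5′ to 3′ on the gene's strand, with every CG dinucleotide, the site of DNA methylation in mammals, in capitals. RefSeq entries matched 28 of the 41 members but only 4 of the 8 called ones. A comparison of CpG content between called and other members is therefore void. Itga3, also called lower and with entries, is not shown, and its windows hold 5 and 22 CG dinucleotides.
Itgb7: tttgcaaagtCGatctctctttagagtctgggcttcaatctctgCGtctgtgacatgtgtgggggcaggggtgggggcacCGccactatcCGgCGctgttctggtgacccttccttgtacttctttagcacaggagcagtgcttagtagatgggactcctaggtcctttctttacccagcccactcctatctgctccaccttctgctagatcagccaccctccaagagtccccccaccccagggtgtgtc
Itga2b: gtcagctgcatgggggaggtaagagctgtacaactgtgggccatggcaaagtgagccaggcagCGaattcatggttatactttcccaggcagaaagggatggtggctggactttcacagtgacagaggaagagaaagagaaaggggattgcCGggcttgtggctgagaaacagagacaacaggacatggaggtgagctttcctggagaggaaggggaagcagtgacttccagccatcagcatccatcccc
Itga4: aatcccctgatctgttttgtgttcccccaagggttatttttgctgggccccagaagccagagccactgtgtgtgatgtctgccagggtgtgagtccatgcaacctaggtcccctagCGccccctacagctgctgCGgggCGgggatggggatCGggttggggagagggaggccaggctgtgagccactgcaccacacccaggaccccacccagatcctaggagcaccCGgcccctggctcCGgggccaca
Itgb1: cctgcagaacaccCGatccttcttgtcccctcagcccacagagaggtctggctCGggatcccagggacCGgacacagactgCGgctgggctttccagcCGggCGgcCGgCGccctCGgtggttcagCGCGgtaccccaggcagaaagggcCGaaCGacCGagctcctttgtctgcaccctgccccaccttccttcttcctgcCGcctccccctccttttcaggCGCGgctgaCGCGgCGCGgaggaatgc

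The Itgb7 window (minus strand, chr15:102231936-102232185) holds 5 CG dinucleotides, and 55.6% of the 32851 RefSeq promoter windows of that length hold as many or more. The Itga2b window (minus strand, chr11:102469884-102470133) holds 2, a count that 81.2% of windows reach. The Itga4 window (plus strand, chr2:79255176-79255425) holds 6, which is the median of all windows. The Itgb1 window (plus strand, chr8:128685404-128685653) holds 21, reached by 16.3% of windows. The series title concerns DNA methylation, but methylation values were not analysed here.

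Among the laminin receptors, Itga7 and Itga3 fell in STHdhQ111 while Itga6 was not called. Itga7, the laminin receptor chain best known from muscle, lies on chromosome 10 at 128370869 to 128398044 (mm9, as all loci below). It was listed at 30.4 FPKM (STHdhQ7) and 1.09 FPKM (STHdhQ111), a 27.9-fold fall. In the authors' deposited table this is a log2 change of -4.80; the fold change divided by the statistic implies a standard error (implied SE) of 0.54, and q is listed as 0. In rank, Itga7 stood above 79.2% of tested genes in STHdhQ7 and above 12.6% in STHdhQ111. Itga3, a chain of the receptor for laminins of basement membranes (chromosome 11, 94905796 to 94938028), fell 2.04-fold, from 42.5 to 20.9 FPKM. The authors' deposited table gives this as a log2 change of -1.03 (implied SE 0.37, q = 0.0469), and after recentring the table on its median gene it was no longer called. Itga6, the alpha chain that pairs with Itgb1 or Itgb4 (chromosome 2, 71625140 to 71694815), was listed at 17.2 FPKM (STHdhQ7) and 13.3 FPKM (STHdhQ111). The 95% interval around its log2 change of -0.37 (from the implied SE) ran from -1.13 to 0.39 in the authors' deposited table. Summed over the 3 laminin-binding chains, the level was 90.1 FPKM (STHdhQ7) and 35.2 FPKM (STHdhQ111).

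**Figure D1:**
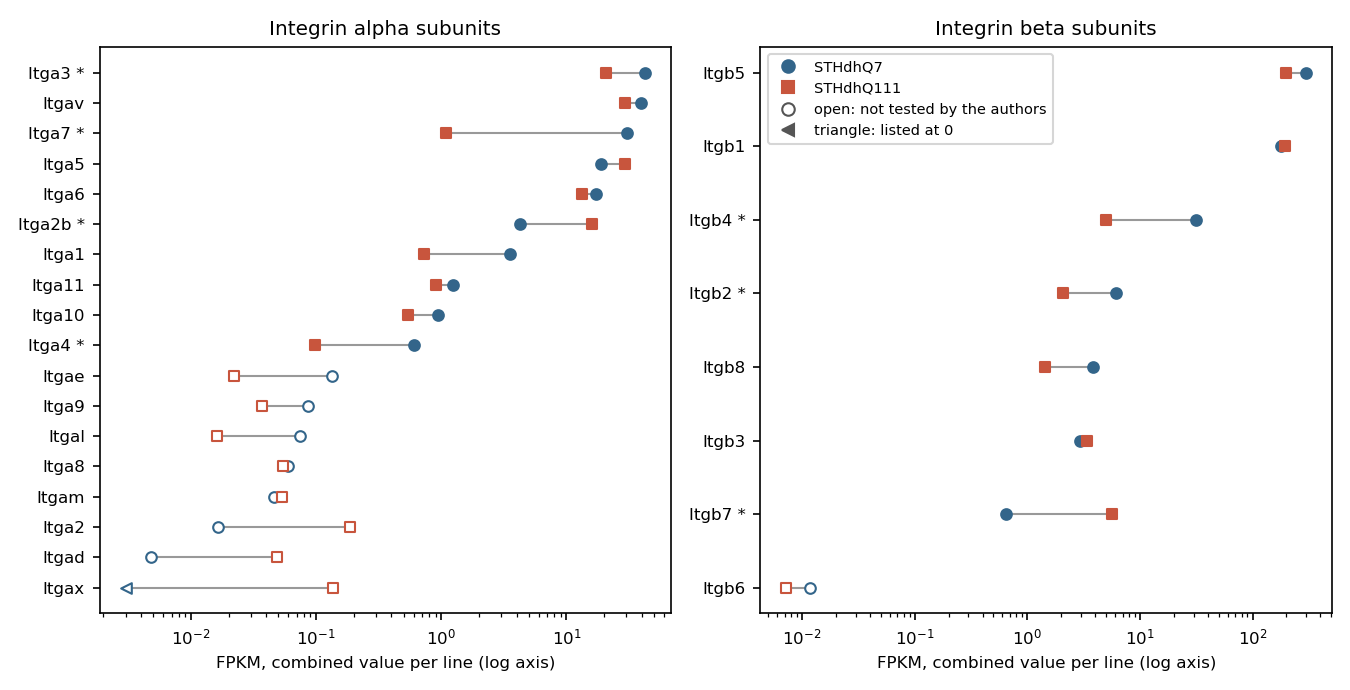
FPKM of the integrin alpha subunits (left) and beta subunits (right) on a log axis, 1 combined value per line, with STHdhQ7 as circles and STHdhQ111 as squares. Stars mark called genes, open symbols genes the authors did not test, and the triangle a value listed at 0. The longest gap among the called genes is that of Itga7, from 30.4 to 1.09 FPKM, while Itgb1 sits at 179.0 and 193.5 FPKM.

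Among the receptor chains that recognise RGD sequences, Itga2b rose and Itgav and Itga5 were not called. Itga2b (chromosome 11, 102314611 to 102331197), which with Itgb3 forms the fibrinogen receptor of platelets, rose 3.73-fold, from 4.28 to 15.97 FPKM. On the log2 scale the authors' deposited table has 1.90, at an implied SE of 0.44 and q = 0.00031. Itgav, the alpha chain shared by the vitronectin receptors (chromosome 2, 83564554 to 83647073), was listed at 39.2 FPKM (STHdhQ7) and 29.4 FPKM (STHdhQ111). Itga5, the fibronectin receptor chain (chromosome 15, 103174718 to 103197179), was listed at 18.9 FPKM (STHdhQ7) and 29.5 FPKM (STHdhQ111). Neither was called: the authors' deposited table gave log2 fold changes of -0.41 for Itgav (95% interval -1.16 to 0.33) and 0.64 for Itga5 (-0.09 to 1.37). Itga8, the nephronectin receptor chain, was untested at 0.0601 FPKM (STHdhQ7) and 0.0541 FPKM (STHdhQ111). The summed level of these 4 chains was 62.5 FPKM (STHdhQ7) and 74.9 FPKM (STHdhQ111).

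Of the platelet and megakaryocyte markers set beside Itga2b, Pf4 and Gp6 were at 0 in both lines, and Gp9 was under 0.02 FPKM in STHdhQ7 and at 0 in STHdhQ111. The chemokine gene Ppbp, on the same list, rose from 0.675 to 22.6 FPKM, and Gp1bb was listed at 0.898 FPKM (STHdhQ7) and 2.53 FPKM (STHdhQ111). The 8 markers summed to 2.27 FPKM (STHdhQ7) and 25.7 FPKM (STHdhQ111), the latter mostly Ppbp. Their part in the Itga2b result was not tested.

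The collagen-binding chains were low, and none of the 3 tested was called, beside 13.5% of all tested genes. Itga1 (chromosome 13, 115748289 to 115892172) was listed at 3.57 FPKM (STHdhQ7) and 0.734 FPKM (STHdhQ111). Itga1 had a log2 change of -2.28 in the authors' deposited table, but its implied SE of 1.09 was the largest of any tested member and the authors' q was 0.185. Its locus in the table also holds Pelo, listed at 21.8 FPKM (STHdhQ7) and 19.0 FPKM (STHdhQ111). Itga10, a collagen receptor chain of cartilage, was listed at 0.947 FPKM (STHdhQ7) and 0.541 FPKM (STHdhQ111). Itga11, a fibroblast collagen receptor chain, was listed at 1.24 FPKM (STHdhQ7) and 0.903 FPKM (STHdhQ111). Itga2 was untested at 0.0164 FPKM (STHdhQ7) and 0.188 FPKM (STHdhQ111). All 3 tested chains had log2 fold changes below 0, and the summed level of the 4 was 5.77 FPKM (STHdhQ7) and 2.37 FPKM (STHdhQ111).

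Itga4, the chain of the VCAM-1 and fibronectin receptor of migrating cells (chromosome 2, 79095583 to 79269145), fell 6.25-fold, from 0.611 to 0.0977 FPKM. This is a log2 change of -2.64 in the authors' deposited table, where the implied SE is 0.85 and q = 0.0173, a call between levels under 1 FPKM. Its locus also holds Cerkl, listed at 0.139 FPKM (STHdhQ7) and 0.0951 FPKM (STHdhQ111). Itga9, its nearest relative among the alpha chains, was untested at 0.0867 FPKM (STHdhQ7) and 0.0372 FPKM (STHdhQ111).

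The alpha chains of leukocytes were near 0 in both lines, and none was tested. In STHdhQ7 the levels were 0.0749 FPKM for Itgal, 0.0461 FPKM for Itgam, 0.0048 FPKM for Itgad and 0.133 FPKM for Itgae, and Itgax was listed at 0. In STHdhQ111 they were 0.0162 FPKM for Itgal, 0.0533 FPKM for Itgam, 0.0491 FPKM for Itgad, 0.022 FPKM for Itgae and 0.137 FPKM for Itgax. Itgae shares its locus with Gsg2, a kinase gene called lower (3.59 FPKM in STHdhQ7, 1.05 FPKM in STHdhQ111).

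As shares of all alpha subunit RNA, which FPKM allows because it is scaled to length, the leading chains differed between the lines. In STHdhQ7, Itga3 held 26.7%, Itgav 24.6%, Itga7 19.1%, Itga5 11.9% and Itga6 10.8%. In STHdhQ111, Itga5 and Itgav each held 26.1%, Itga3 18.5%, Itga2b 14.1% and Itga6 11.8%. Itga7 held 0.968% of the alpha RNA in STHdhQ111, and Itga2b held 2.69% in STHdhQ7. The summed alpha level was 159.2 FPKM (STHdhQ7) and 112.9 FPKM (STHdhQ111). These shares are single values per line, with no error of their own, and Itga5, Itgav and Itga6 were not called. A share also moves with the total: that of Itgav rose while its level went from 39.2 FPKM (STHdhQ7) to 29.4 FPKM (STHdhQ111).

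**Figure D2:**
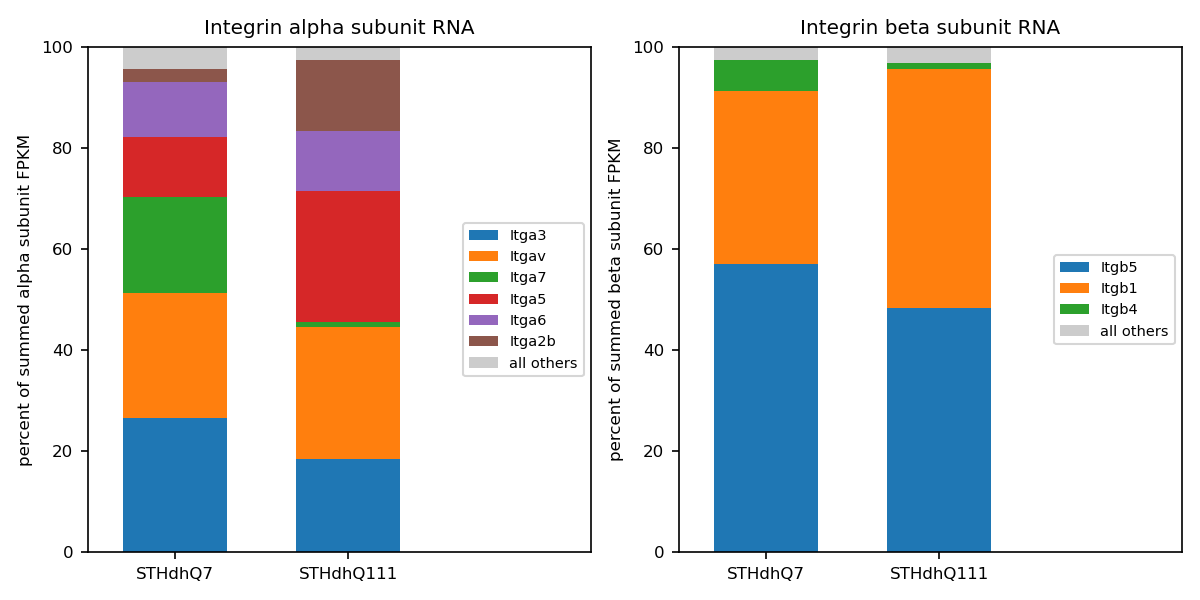
Percent of the summed FPKM of the 18 alpha subunits (left) and 8 beta subunits (right) held by each subunit with at least 5% in a line, the rest in grey, for STHdhQ7 and STHdhQ111. The Itga7 block shrinks from 19.1% to 0.968% and that of Itga2b grows from 2.69% to 14.1%, while Itgb5 and Itgb1 hold most of the beta RNA in both lines.

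Among the beta chains, the abundant Itgb1 and Itgb5 were not called, Itgb4 and Itgb2 fell, and Itgb7 rose. Itgb1, the partner of most alpha chains (chromosome 8, 131209554 to 131257479), was listed at 179.0 FPKM (STHdhQ7) and 193.5 FPKM (STHdhQ111). With a log2 change of 0.11 in the authors' deposited table, its 95% interval was -0.69 to 0.92. Itgb5, a vitronectin receptor chain (chromosome 16, 33829751 to 33949424), was listed at 298.5 FPKM (STHdhQ7) and 198.1 FPKM (STHdhQ111). The 95% interval around its log2 change of -0.59 ran from -1.46 to 0.28 in the authors' deposited table. Both genes stood above at least 97% of tested genes in each line, and Itgb5 held 57.1% of the beta RNA in STHdhQ7 and 48.4% in STHdhQ111. The share of Itgb1 was 34.2% in STHdhQ7 and 47.3% in STHdhQ111. The order of the pair did not change between the lines, and in STHdhQ111 their levels were within 5 FPKM.

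Itgb4, the long-tailed beta chain that anchors epithelial cells to laminin at hemidesmosomes (chromosome 11, 115836039 to 115874033), fell 6.36-fold, from 31.5 to 4.95 FPKM. The authors' deposited table gives this as a log2 change of -2.67 (implied SE 0.58, q = 8.36e-05). Galk1, which shares the locus, was listed at 28.6 FPKM (STHdhQ7) and 34.6 FPKM (STHdhQ111) and was not called. Among the 11 epithelial markers, Krt19 fell from 56.6 to 8.08 FPKM and Krt8 to 1.4 FPKM from 6.13, whereas the desmosomal Dsp rose from 5.58 to 29.8 FPKM. The other 8 were under 1 FPKM in both lines, the defining markers Epcam (0.05 FPKM in STHdhQ7, 0.477 FPKM in STHdhQ111) and Cdh1 (0.151 and 0.113 FPKM) among them. The 11 summed to 69.5 FPKM (STHdhQ7) and 40.6 FPKM (STHdhQ111), and their part in the Itgb4 result was not tested.

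Itgb2, the beta chain of the leukocyte integrins (chromosome 10, 76993093 to 77028419), fell 2.97-fold, from 6.13 to 2.06 FPKM. On the log2 scale the authors' deposited table has -1.57, at an implied SE of 0.51 and q = 0.0175. Itgb7, known from gut-homing lymphocytes (chromosome 15, 102046426 to 102062366), rose 8.76-fold, from 0.646 to 5.65 FPKM. This is a log2 change of 3.13 in the authors' deposited table, where the implied SE is 0.53 and q = 1.69e-07. Both chains are thus listed above 2 FPKM in STHdhQ111, whereas their alpha partners Itgal, Itgam, Itgax, Itgad, Itgae and Itga4 were under 0.14 FPKM there. Of 19 leukocyte markers, 14 were under 0.1 FPKM in both lines. The pan-leukocyte Ptprc was at 0.0036 FPKM (STHdhQ7) and 0.00334 FPKM (STHdhQ111), and Cd3e, Cd3g and Tyrobp were at 0 in both lines. The exceptions above 1 FPKM were Cd14, which rose from 3.73 to 18.8 FPKM, and Lyz2 at 0.771 FPKM (STHdhQ7) and 1.46 FPKM (STHdhQ111). The list summed to 5.77 FPKM (STHdhQ7) and 21.2 FPKM (STHdhQ111).

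The remaining beta chains were not called or not tested. Itgb8, which with Itgav activates latent TGF-beta (chromosome 12, 120401276 to 120476749), was listed at 3.85 FPKM (STHdhQ7) and 1.44 FPKM (STHdhQ111). Its log2 change of -1.42 in the authors' deposited table had an implied SE of 0.55 and missed the threshold at q = 0.0706. Itgb3, the partner of Itga2b and Itgav (chromosome 11, 104469314 to 104531785), was listed at 2.95 FPKM (STHdhQ7) and 3.40 FPKM (STHdhQ111). Its log2 change of 0.21 in the authors' deposited table carried a 95% interval of -0.66 to 1.07. Itgb6, an epithelial partner of Itgav, was untested at 0.0116 FPKM (STHdhQ7) and 0.00725 FPKM (STHdhQ111). Itgbl1, a beta-like protein without a membrane anchor, was listed at 3.34 FPKM (STHdhQ7) and 2.75 FPKM (STHdhQ111) and was not called.

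Integrins act as pairs, so the lower of the 2 subunit RNAs was read for each of the 24 known mammalian pairs, a grouping added after the values were seen. In 10 pairs both subunits were at 1 FPKM or more in both lines, in 2 pairs only in STHdhQ7, and in the remaining 12 in neither line. The 2 pairs were Itga1 with Itgb1 and Itga11 with Itgb1, in which no subunit was called. Among the 10 pairs was Itga7 with Itgb1, although the called Itga7 fell from 30.4 to 1.09 FPKM, just over that level in STHdhQ111. In all 12 pairs with Itgb1 the alpha chain was the lower RNA in both lines. That follows from Itgb1 alone, at 179.0 FPKM (STHdhQ7) and 193.5 FPKM (STHdhQ111), since no alpha chain exceeded 42.5 FPKM. For Itga6 with Itgb4, the lower RNA was Itga6 at 17.2 FPKM in STHdhQ7 and Itgb4 at 4.95 FPKM in STHdhQ111. For Itga2b with Itgb3, the lower RNA was Itgb3 in both lines, at 2.95 and 3.40 FPKM, although Itga2b itself rose. Both pairs of Itgb7, with Itga4 and with Itgae, had the alpha RNA under 1 FPKM in both lines.

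On the inner side of the receptor, Tln2 was the single called gene among the 12 tested partners (8.33%, beside 13.5% of all tested genes). Tln2, a talin of muscle and brain (chromosome 9, 67064892 to 67407510), fell 9.69-fold, from 13.8 to 1.42 FPKM. The authors' deposited table gives this as a log2 change of -3.28 (implied SE 0.41, q = 2.94e-13). Tln1, the widely expressed talin (chromosome 4, 43544385 to 43575455), was listed at 57.0 FPKM (STHdhQ7) and 52.3 FPKM (STHdhQ111). With a log2 change of -0.13 in the authors' deposited table, its 95% interval was -0.91 to 0.66. The 95% intervals of Tln2 (-4.09 to -2.46 in the authors' deposited table) and Tln1 did not overlap; the difference between the genes was not tested. Vinculin (Vcl, chromosome 14, 21748655 to 21852895) was listed at 76.2 FPKM (STHdhQ7) and 104.3 FPKM (STHdhQ111). The 95% interval around its log2 change of 0.45 ran from -0.33 to 1.24 in the authors' deposited table.

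The markers of skeletal muscle, a tissue known for both Itga7 and Tln2, were mostly untested and under 0.5 FPKM in both lines. Of the 14 listed, 3 were tested, of which 1 was called higher and 0 lower, beside 6.35% and 7.17% of all tested genes. The myogenic factors Myf5 and Myf6 were at 0 in both lines. Myod1 was at 0 in STHdhQ7 and 0.00628 FPKM in STHdhQ111, and Myog at 0 in STHdhQ7 and 0.137 FPKM in STHdhQ111. Desmin (Des) rose from 9.02 to 26.6 FPKM, and the 14 markers summed to 10.1 FPKM (STHdhQ7) and 28.8 FPKM (STHdhQ111). Of the 10 neural progenitor markers 6 were tested, and 3 of these were called lower (Sox2, Nes and Pax6) and 0 higher, against the same background of 7.17% and 6.35%. That list summed to 183.4 FPKM (STHdhQ7) and 56.0 FPKM (STHdhQ111). Of the 10 endothelial markers 4 were tested, and Flt1 fell from 7.45 to 0.783 FPKM while Tek rose from 0.386 to 1.46 FPKM. The defining endothelial genes Pecam1 and Cdh5 were under 0.06 FPKM in both lines, and the list summed to 9.82 FPKM (STHdhQ7) and 4.86 FPKM (STHdhQ111). Of the 10 markers of smooth muscle and mural cells 6 were tested, and Mcam fell from 16.5 to 2.48 FPKM while Des, which is on this list too, rose. That list summed to 454.1 FPKM (STHdhQ7) and 424.2 FPKM (STHdhQ111), mostly Acta2, which was not called. The part of these lists in the changes of the receptor genes was not tested, and in bulk RNA fewer cells of a type and less RNA per cell cannot be told apart.

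The kindlins, which bind beta tails beside talin, were represented by Fermt2 alone. Fermt2 (chromosome 14, 46078467 to 46149740) was listed at 19.7 FPKM (STHdhQ7) and 19.2 FPKM (STHdhQ111). Its log2 change of -0.04 in the authors' deposited table carried a 95% interval of -0.80 to 0.72. The epithelial Fermt1 (0.0705 FPKM in STHdhQ7, 0.0566 FPKM in STHdhQ111) and the blood cell form Fermt3 (0.196 and 0.246 FPKM) were untested.

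None of the 5 genes of the Ilk, PINCH and parvin complex was called, beside 13.5% of all tested genes. The pseudokinase Ilk (chromosome 7, 112880244 to 112892852) was listed at 57.7 FPKM (STHdhQ7) and 52.4 FPKM (STHdhQ111). Its locus is shared with Taf10 and Rrp8, and only 30.7% of the 50-base words of its GENCODE M21 transcripts occurred in no other gene, so the Ilk value is uncertain. Among the other tested members the lowest such shares were 69.4% for Itga10 and 74.9% for Vcl. Lims1, the common PINCH protein, was listed at 49.8 FPKM (STHdhQ7) and 46.9 FPKM (STHdhQ111). The alpha-parvin gene Parva was listed at 64.0 FPKM (STHdhQ7) and 45.2 FPKM (STHdhQ111), and the beta-parvin gene Parvb at 22.4 and 18.8 FPKM. Lims2, the second PINCH gene, was the least abundant of the complex, at 2.04 FPKM (STHdhQ7) and 3.88 FPKM (STHdhQ111). The largest of the 5 log2 fold changes in the authors' deposited table was that of Lims2, 0.93 with a 95% interval of -0.22 to 2.07.

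**Figure D3:**
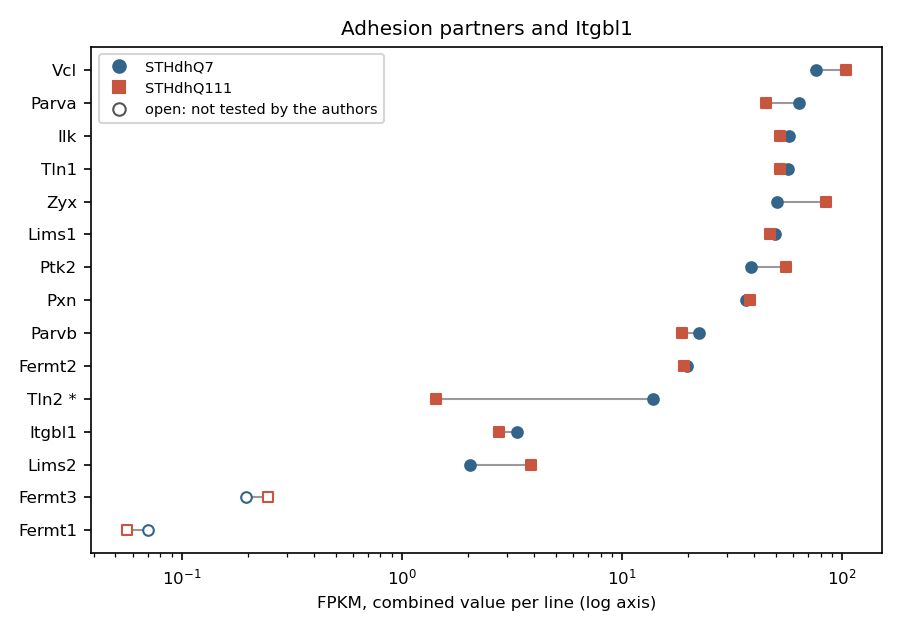
FPKM of the intracellular partners and Itgbl1 on a log axis, 1 combined value per line, with STHdhQ7 as circles and STHdhQ111 as squares, a star on the called gene and open symbols on untested genes. Tln2 moves from 13.8 to 1.42 FPKM, and the other tested partners stay within 2-fold between the lines.

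None of the 3 signalling and scaffold genes was called, beside 13.5% of all tested genes. The focal adhesion kinase gene Ptk2 (chromosome 15, 73035535 to 73253621) was listed at 38.5 FPKM (STHdhQ7) and 55.9 FPKM (STHdhQ111), a log2 fold change of 0.54 in the authors' deposited table (95% interval -0.22 to 1.29). Paxillin (Pxn, chromosome 5, 115956711 to 116005995) was listed at 36.6 FPKM (STHdhQ7) and 38.1 FPKM (STHdhQ111). Zyxin (Zyx, chromosome 6, 42299827 to 42308394), a LIM protein of mature adhesions that carry tension, was listed at 50.4 FPKM (STHdhQ7) and 84.4 FPKM (STHdhQ111). Zyx had a log2 change of 0.74 in the authors' deposited table, and although its unadjusted 95% interval of 0.00 to 1.49 lay just above 0, the authors' q was 0.234. The sum over the 14 partners was 488.5 FPKM (STHdhQ7) and 523.1 FPKM (STHdhQ111), against 681.8 and 522.0 FPKM for the 26 receptor subunits.

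**Figure D4:**
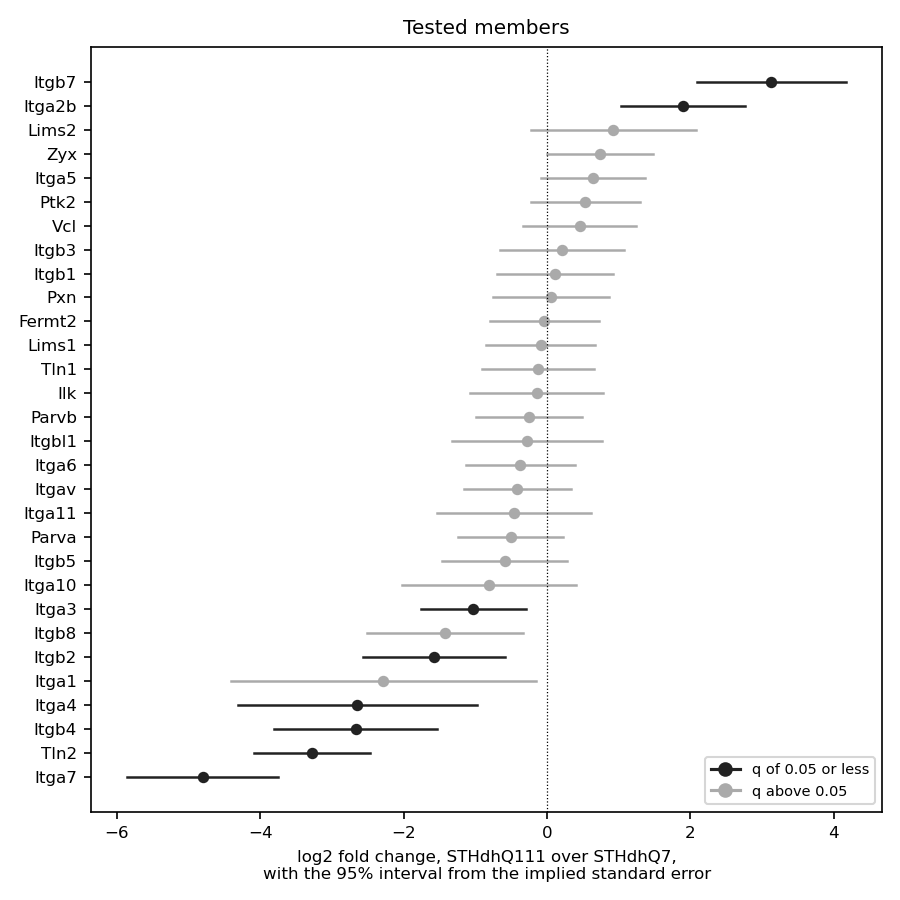
Log2 fold change (STHdhQ111 over STHdhQ7) of the 30 tested members from the authors' deposited table, with the 95% interval from the implied standard error, in black at a q of 0.05 or less. Itga7 is lowest at -4.80 and Itgb7 highest at 3.13, and the intervals of the intracellular partners span 0 except those of Tln2 and Zyx.

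Genes of other adhesion site proteins were called at about the share of all tested genes. Of 58 tested, 8 (13.8%, beside 13.5% of all tested genes) were called, 4 higher and 4 lower, and the median log2 ratio was 0.10, beside -0.05 over all tested genes. The muscle-type filamin Flnc rose from 19.4 to 79.2 FPKM, the Rac activator Elmo1 from 2.03 to 6.25 FPKM, the tensin Tns1 from 9.85 to 23.3 FPKM and the adaptor Crk from 34.9 to 80.2 FPKM. The actin-linked scaffold Sorbs2 fell from 11.4 to 0.151 FPKM, the Crk-binding Nedd9 from 25.9 to 5.55 FPKM, the LIM protein Tes from 41.0 to 9.65 FPKM and the kinase Fyn from 31.2 to 14.9 FPKM. The abundant crosslinkers Flna (177.2 FPKM in STHdhQ7, 208.2 FPKM in STHdhQ111) and Actn4 (165.5 and 158.2 FPKM) were not called. Of 22 tested integrin regulators and lateral partners, 1 (4.55%, beside the same 13.5%) was called, the tetraspanin Cd9, which fell from 208.6 to 82.3 FPKM. The median of that list was -0.03, and Cd63 (1392 FPKM in STHdhQ7, 1381 FPKM in STHdhQ111) and Bsg (457.1 and 967.2 FPKM) were not called.

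Integrin ligands changed in both directions. Of 39 tested ligand genes 22 (56.4%) were called, 11 higher and 11 lower, with a median log2 ratio of 0.07. Over all tested genes 13.5% were called, 6.35% higher and 7.17% lower, with a median of -0.05. The ligand list, like the other lists, was chosen with earlier results of these data known, so its share is a description only. Among those higher, the collagen chain Col1a2 rose from 11.5 to 532.6 FPKM, the matricellular Nov from 8.10 to 228.0 FPKM, Tgfbi from 3.54 to 54.3 FPKM, Col6a3 from 3.35 to 25.1 FPKM and Emilin1 from 32.1 to 131.9 FPKM. Among those lower, osteopontin (Spp1) fell from 623.3 to 50.8 FPKM, tenascin C (Tnc) from 154.7 to 25.5 FPKM, Ctgf from 237.0 to 44.2 FPKM, Postn from 7.93 to 1.46 FPKM and Edil3 from 12.1 to 2.54 FPKM. Fn1, the fibronectin ligand of Itga5, was listed at 322.1 FPKM (STHdhQ7) and 625.8 FPKM (STHdhQ111) and was not called, nor was Thbs1 (490.5 and 369.1 FPKM).

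Ligand and receptor of the same pair can be set side by side. Vcam1, the cell-surface ligand of Itga4 with Itgb1, fell from 52.6 to 0.766 FPKM, and Itga4 fell too, from 0.611 to 0.0977 FPKM. Icam1, a ligand of the Itgb2 integrins, fell from 4.14 to 0.371 FPKM, and Itgb2 from 6.13 to 2.06 FPKM. Of the laminin chains, Lama4 rose from 0.129 to 8.07 FPKM while Lama2 fell from 1.21 to 0.323 FPKM. The laminin receptor chains Itga7, Itga3 and Itgb4 fell. Nephronectin (Npnt) rose from 9.04 to 21.3 FPKM, whereas its receptor chain Itga8 was under 0.07 FPKM in both lines. These 5 ligands were picked for their receptors after their values were seen.

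**Figure D5:**
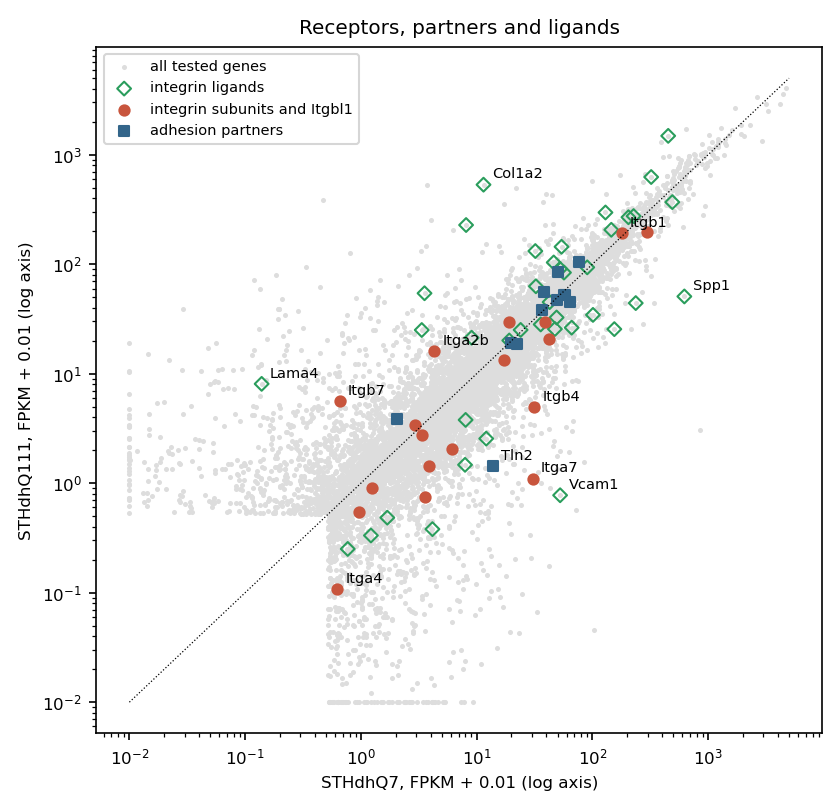
FPKM + 0.01 in STHdhQ7 (x) and STHdhQ111 (y), both log axes, for all tested genes (grey), integrin subunits and Itgbl1 (circles), intracellular partners (squares) and integrin ligands (diamonds), with equality as a dotted line. Most squares lie near the line, Tln2 apart, while ligands such as Col1a2 (11.5 and 532.6 FPKM) and Spp1 (623.3 and 50.8 FPKM) lie far off it on either side.

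In position, 5 members lie on chromosome 11: Itga2b, Itga3 and Itgb4, which were called in different directions, and Itgb3 and Itgae, which were not. Itga1 and Itga2 are neighbours on chromosome 13, with Itga2 at 115626120 to 115722249, and their levels in STHdhQ7 were 3.57 and 0.0164 FPKM. Itgal, Itgam, Itgax and Itgad lie on chromosome 7 and were all under 0.14 FPKM. The loci of 11 members in the table overlap another gene, the called Itga4, Itga7, Itgb4 and Tln2 among them. The partner at Itga7, Mettl7b, was at 0 in STHdhQ7 and 0.0302 FPKM in STHdhQ111, and that at Tln2, Mir190, was at 0 in both lines. Of the 50-base words of the called members, 92.5% (Itga4) or more occurred in no other gene's transcripts.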

How the data were processed

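The submitters' processing notes name the mm9 build with Cufflinks 2.0.2, Cuffdiff, Bowtie 0.12.7 and TopHat 1.4.0. The Cuffdiff version, annotation and options were not given in the sources used here. Protocols in the labels describe no strand marking, so overlapping genes can share reads. Per the file headers, the authors deposited an FPKM for each line, with the log2 fold change, statistic, p-value and q-value. The sample titles name 3 replicates per line, so each FPKM was read as combined over them. The labels do not say that the replicates were separate cultures. Deposited p-values matched a two-sided normal test of the statistic within 2.7e-06, and q-values their Benjamini-Hochberg adjustment within 2.2e-06, so the fold change over the statistic gives the implied standard error (median 0.44 over tested genes, 0.43 over tested members). Intervals are the fold change plus and minus the 95% normal range of that error. No replicate values were used, so no test was added.

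Members were matched by symbol. The members and gene lists were chosen with earlier results of these data known. Every member is named with both values, called list genes by size and uncalled ones by level; further called list genes were named after their values were seen. Of 230 list entries 1 was not matched. The deposited locus length equalled the RefSeq length for more genes (7132) than with 1 added (453), so starts were raised by 1. Alternatives covered threshold, adjustment, filter, fold minimum, scaling and pseudocount. The recalculation was tested on simulated data. Python 3.11.15, numpy 2.4.6, pandas 2.3.3, scipy 1.17.1 and matplotlib 3.10.9 were used.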

Additional observations from a re-analysis of the deposited data

How the results depend on the processing

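The calls were recounted under other settings. Itga7, Itgb4, Itgb7 and Tln2 stayed called under all 6 (a q of 0.01, a q of 0.1, Bonferroni adjustment, genes at 1 FPKM or more in a line, a 4-fold minimum, and recentring by the median of -0.05). The called members numbered 5 of the 8 at a q of 0.01 (without Itga3, Itga4 and Itgb2), 4 with Bonferroni (also without Itga2b) and 5 with the 4-fold minimum (without Itga2b, Itga3 and Itgb2). Among genes at 1 FPKM or more in a line there were 7, since Itga4 leaves the test. At a q of 0.01, 3 were lower. With Bonferroni 1 was higher and 3 lower, and with the 4-fold minimum 1 was higher. Recentring dropped Itga3 and turned the sign of the uncalled Fermt2, and a q of 0.1 added Itgb8. Other adhesion site genes called fell from 8 to 4 with Bonferroni and to 4 with the 4-fold minimum. Ligands called fell from 22 to 12 and 13, and all tested genes called from 1723 to 577 and 1048. Of the 12740 tested genes, 1224 were called at a q of 0.01, 2048 at a q of 0.1 and 1711 after recentring. Among genes at 1 FPKM or more in a line, 1615 were called. Of the regulators, 2 were called at a q of 0.1, 2 after recentring, and 0 with Bonferroni or the 4-fold minimum (1 by the authors' q). The median of the regulators was -0.0314, and 0.0155 after recentring. The median of the tested members ranged from -0.26 (pseudocount 0.1) to -0.19 (genes at 1 FPKM or more). No paired analysis was possible because each line has 1 combined value, and for that reason no replicate could be left out. Depth is unknown, so no counting error could be given.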
